A study of Homo sapiens with 30 samples.

Results

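The expression of 10 genes of fatty acid synthesis and of its regulator SREBP1 was followed across 30 libraries of LX2 cells, an established human line derived from hepatic stellate cells, which lay down scar matrix in the fibrotic liver. The genes were ACLY, ACACA, ACACB, FASN, ACSS2, SREBF1, ME1, ACSL1, ACSL3 and LPIN1. They were chosen by symbol for their roles, with earlier results of these data known, and each matched 1 row of a table of 61597 genes. The cells had been given vehicle (albumin), oleic acid (OLA, 18 carbons and 1 double bond, ω9) or docosahexaenoic acid (DHA, 22 carbons and 6 double bonds, ω3), and then betacellulin (BTC, a growth factor of the epidermal growth factor family) or no BTC. The design gave 6 groups of 5 libraries, written as pretreatment and treatment: Veh+Veh, Veh+BTC, OLA+Veh, OLA+BTC, DHA+Veh and DHA+BTC. Every group has 1 library in each of 5 experiments that the labels name, and a number after a group is the experiment. Fatty acids were at 50 µM on 20 µM albumin and BTC was at 20 ng/ml for 72 h in medium with 1% serum. The labels differ on how long the fatty acid was present: they give 2 cycles of 48 h, 96 h, and 72 h alongside BTC. All groups, the controls included, are cultures of this single line grown alone. The sources used here do not say whether the experiments are separate passages. The p-values therefore measure the spread between these libraries, after differences between experiments are removed except where a fit leaves experiment out.

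Cells build fatty acids from acetyl-CoA in the cytosol. ACLY makes this acetyl-CoA from citrate and ACSS2 makes it from acetate, the acetyl-CoA carboxylases ACACA and ACACB turn it into malonyl-CoA, and FASN joins these units into palmitate with NADPH, part of which comes from the malic enzyme ME1. The synthetases ACSL1 and ACSL3 activate the finished or imported fatty acid to acyl-CoA, and LPIN1, a phosphatidate phosphatase, makes the diacylglycerol to which acyl-CoA is added on the way to triglyceride. SREBF1 encodes SREBP1, a membrane-bound transcription factor that is cut free by proteases and switches on most of these genes. Polyunsaturated fatty acids are known to lower SREBP1 activity in liver cells, and activated stellate cells hold less stored lipid than quiescent ones.

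RefSeq promoter windows of 300 bases (250 before to 50 after a start site, GRCh38.p14) were matched for 9 of the 10 genes, in 20 windows. FASN had no window, so its promoter was not searched. The windows of ACACA and ACSL3 are shown because these genes gave the firmest results with DHA, and because ACACA has 3 starts that 3′ tag counts add together. Capitals mark a CCAAT box (CCAAT) or a GC box (GGGCGG) on either strand, and overlapping matches were merged.
ACACA chr17:37359047-37359346 (minus strand): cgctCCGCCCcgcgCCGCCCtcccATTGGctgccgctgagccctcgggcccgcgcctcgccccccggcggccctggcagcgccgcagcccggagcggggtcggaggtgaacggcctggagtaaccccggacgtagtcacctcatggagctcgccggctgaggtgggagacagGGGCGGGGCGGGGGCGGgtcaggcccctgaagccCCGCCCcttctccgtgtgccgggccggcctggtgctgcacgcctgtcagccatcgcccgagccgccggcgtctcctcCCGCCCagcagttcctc
ACACA chr17:37406787-37407086 (minus strand): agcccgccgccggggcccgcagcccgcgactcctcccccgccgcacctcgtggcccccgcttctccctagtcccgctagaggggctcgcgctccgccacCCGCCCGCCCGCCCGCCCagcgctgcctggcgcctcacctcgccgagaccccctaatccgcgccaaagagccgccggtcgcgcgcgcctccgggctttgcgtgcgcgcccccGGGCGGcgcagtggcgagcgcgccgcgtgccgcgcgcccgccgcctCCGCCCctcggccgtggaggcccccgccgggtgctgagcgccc
ACACA chr17:37299718-37300017 (minus strand): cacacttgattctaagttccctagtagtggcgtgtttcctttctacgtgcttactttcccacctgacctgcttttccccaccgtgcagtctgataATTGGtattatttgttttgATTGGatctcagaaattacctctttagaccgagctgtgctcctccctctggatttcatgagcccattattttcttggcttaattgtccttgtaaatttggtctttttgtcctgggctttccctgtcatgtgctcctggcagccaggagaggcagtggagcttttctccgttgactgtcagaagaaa
ACSL3 chr2:222860786-222861085 (plus strand): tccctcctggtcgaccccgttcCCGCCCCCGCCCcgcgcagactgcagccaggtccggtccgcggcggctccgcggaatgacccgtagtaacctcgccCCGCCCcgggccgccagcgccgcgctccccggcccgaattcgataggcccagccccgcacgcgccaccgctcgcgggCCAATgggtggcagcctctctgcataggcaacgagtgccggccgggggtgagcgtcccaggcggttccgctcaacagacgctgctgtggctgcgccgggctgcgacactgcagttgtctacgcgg
The first 2 ACACA windows and the ACSL3 window were rich in G and C (77.3%, 82.3% and 74%). They held 7, 6 and 3 matches of the GC box, each counted before merging. The third ACACA window had 45.3% G and C, no GC box and 2 CCAAT boxes. Over the 9 genes, 14 of 20 windows held a GC box and 8 of 20 a CCAAT box, against 45% and 34.6% of 35116 RefSeq promoter windows of the same length. The sterol regulatory element was searched as TCACNCCAC on both strands. It was found in 1 window, at position -242 from a start of ACSL1 (chr4:184805779-184805803, minus strand, the match in capitals, as its reverse complement), and in 1.13% of all windows.
ACSL1: gtggagcaGTGGGGTGActttgctg
The E-box CACGTG was in none of the 20 windows and in 7.26% of all windows. From each window, 25 bases after the start were looked for in GENCODE v29 transcripts of the gene. Among the windows where they were not found were this ACSL1 window and the second ACACA window. A match is a description of letters, and elements farther from the start lie outside these windows.

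Levels are 3′ tag reads per 1000000 reads of the library (CPM), which count transcripts near their polyadenylated end and are not divided by length. Depth was between 1245182 and 9490142 reads per library (median 3683035). Low depth fell on DHA libraries: the 3 with the fewest reads were DHA+Veh 5, DHA+BTC 5 and DHA+BTC 4. Of 14 stellate markers 11 had a mean of at least 1 CPM, with a summed level of 1789 to 4403 CPM per library. Of the 11 tested, 2 were called higher and 7 lower with DHA (limma). Over all genes tested, averaged over BTC, 2.33% were called higher and 8.38% lower. The markers were not examined with other tools or settings. None of 9 hepatocyte markers reached that mean, their sum stayed at or under 5.25 CPM, and TTR was at 0 in all libraries. Summed epithelial markers ran from 28.2 to 97.8 CPM after vehicle and from 44.3 to 162 CPM after DHA, and adipocyte markers from 7.70 to 25.3 CPM and from 4.95 to 12.9 CPM, with ADIPOQ at 0 throughout. Of 7 leukocyte and macrophage markers 3 had a mean of at least 1 CPM. Their sums ran from 11.0 to 53.8 CPM after vehicle, 14.7 to 56.5 CPM after OLA and 8.75 to 53.9 CPM after DHA. Of 5 endothelial markers 1 had such a mean. Their sums ran from 0.591 to 9.69 CPM after vehicle, 2.48 to 47.0 CPM after OLA and 1.78 to 10.8 CPM after DHA. The part of these markers in the results was not tested. In bulk RNA, fewer expressing cells and less RNA per cell cannot be told apart.

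FASN and ACLY were the most abundant of the 10 genes, with a mean of 382 ± 172 CPM (SD, n = 30) and a mean of 332 ± 68.8 CPM (SD, n = 30). These neighbours did not differ beyond their spread. ACSL3 followed with a mean of 124 ± 97.4 CPM (SD, n = 30), then LPIN1 and ACACA, whose means of 43.4 and 36.1 CPM also overlapped in their spread. ACSS2 had a mean of 20.0 ± 7.33 CPM (SD, n = 30). The muscle-type carboxylase ACACB had a mean of 10.1 ± 5.41 CPM (SD, n = 30), below ACACA, the main cytosolic form. SREBF1 had a mean of 7.74 ± 5.00 CPM (SD, n = 30), and ME1 and ACSL1 were lowest with means of 3.85 and 3.70 CPM. The median library held 25 reads of SREBF1, 14 of ME1 and 10 of ACSL1, so counting error alone was 20.0%, 26.7% and 31.6% of the level. For FASN and ACLY it was 2.86% and 2.66%.

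DHA lowered ACACA, ACSL3, FASN and ACLY, and raised none of the 10 genes, averaged over libraries without and with BTC. The falls were 2.00-fold for ACSL3, 1.63-fold for FASN, 1.58-fold for ACACA and 1.31-fold for ACLY. The call required an adjusted p under 0.05 in a limma fit to log2(CPM + 1) with experiment as a term, adjusted over all 15137 genes tested. By this rule 4 of 10 genes were called lower, against 8.38% of all genes tested called lower and 10.7% called in either direction. The 1621 calls over the table split into 352 higher and 1269 lower genes. This split moved to 530 and 754 with median-of-ratios scaling, 454 and 497 with edgeR, and 636 and 734 with DESeq2. All 10 differences were negative, with a median of -0.52, beside -0.13 over all genes tested. Averaging over BTC takes 2 libraries of an experiment as independent. When they were averaged first, ACACA and ACSL3 were called and FASN and ACLY were not, and edgeR and DESeq2 also called ACACA and ACSL3 and neither of the other two.

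**Figure D1:**
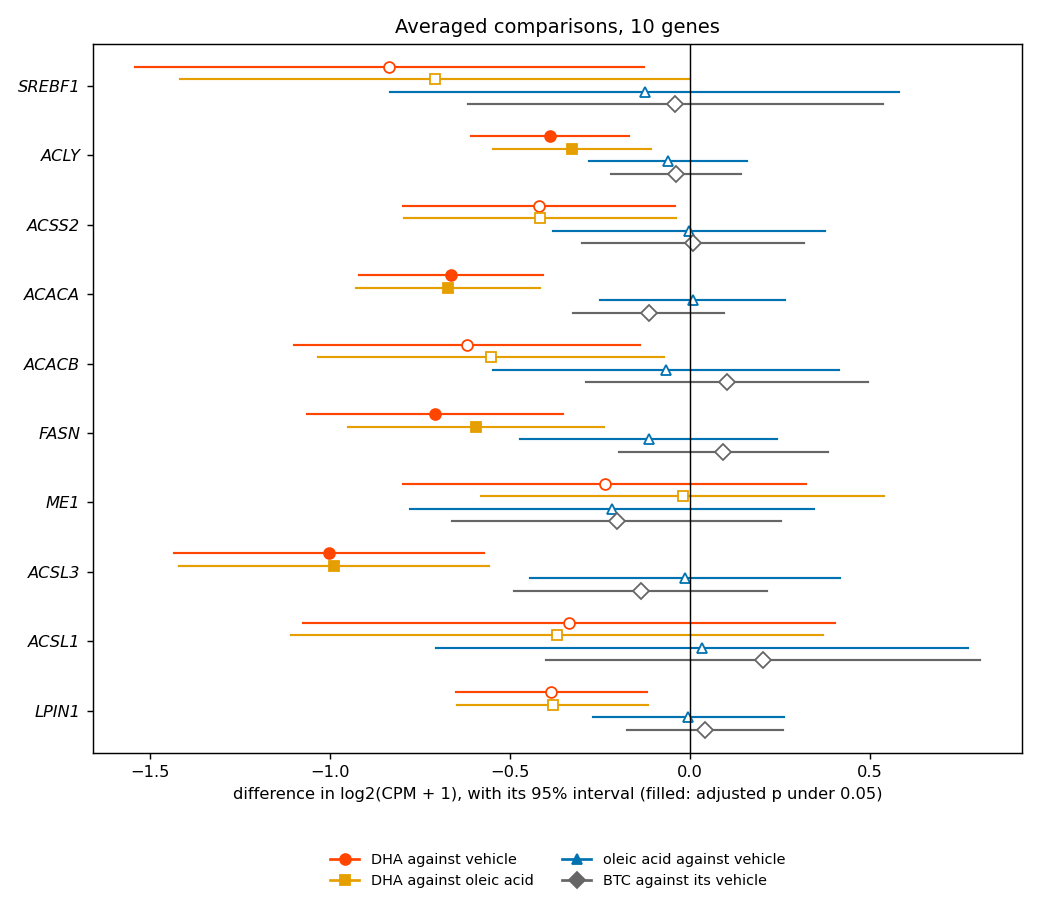
Difference in log2(CPM + 1) with its 95% interval from the limma fit for each of the 10 genes (rows, ordered by role) in the 4 averaged comparisons (colours and shapes), filled where the adjusted p was under 0.05. ACLY, ACACA, FASN and ACSL3 are filled for DHA against vehicle and for DHA against oleic acid, and the intervals for oleic acid and for BTC all include 0.

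ACACA, the cytosolic carboxylase of the committed step, fell, and was lower after DHA in every experiment. In experiments 1 to 5, Veh+Veh libraries held 46.8, 56.0, 26.1, 27.4 and 55.0 CPM, and Veh+BTC libraries held 45.3, 49.6, 41.1, 22.6 and 44.6 CPM. DHA+Veh libraries held 29.6, 41.8, 21.2, 17.7 and 28.6 CPM, and DHA+BTC libraries held 23.2, 41.3, 21.0, 17.4 and 17.7 CPM. Within each of the 5 experiments both DHA libraries lay below both vehicle libraries, although the groups overlapped when experiments were pooled, and experiment 2 was the highest in every group. OLA+Veh libraries held 45.3, 59.8, 36.1, 28.9 and 42.9 CPM, and OLA+BTC libraries held 45.8, 54.1, 31.1, 29.8 and 36.5 CPM. Both DHA libraries also lay below both OLA libraries in 5 of 5 experiments. The mean was 41.4 ± 12.1 CPM (SD, n = 10) after vehicle and 25.9 ± 9.25 CPM (SD, n = 10) after DHA. The difference was -0.66 ± 0.13 (log2, SE; limma, adjusted p = 0.000668), and its 95% interval was -0.92 to -0.41. The ACACA call held when any library or any experiment was left out, with an adjusted p of at most 0.0114. It also held with the libraries averaged per experiment (limma, adjusted p = 0.0184), with edgeR (adjusted p = 0.00662), with DESeq2 (adjusted p = 0.000587) and without the 3 shallowest libraries (limma, adjusted p = 0.00672). Without the experiment term it was lost (limma, adjusted p = 0.182), as were the other 3 calls.

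ACSL3, a synthetase of the endoplasmic reticulum and of lipid droplets, fell by 1.00 on the log2 scale, the largest estimate of the 10 genes over all libraries, though not without experiment 5 or without the 3 shallowest libraries, where FASN was lower. Veh+Veh libraries held 376, 207, 93.0, 56.0 and 54.8 CPM in experiments 1 to 5, and Veh+BTC libraries held 145, 349, 73.6, 69.7 and 56.4 CPM. DHA+Veh libraries held 188, 155, 63.3, 15.1 and 27.9 CPM, and DHA+BTC libraries held 208, 137, 51.3, 16.9 and 13.7 CPM. Experiments 1 and 2 were high and experiments 3 to 5 low in every group, so the pooled groups overlapped. Within experiments ACSL3 was lower after DHA in 9 of 10 pairs matched for BTC, the exception being experiment 1 with BTC. OLA+Veh libraries held 263, 202, 80.5, 43.3 and 104 CPM, and OLA+BTC libraries held 221, 240.4, 83.0, 81.4 and 43.0 CPM. Against OLA the DHA library was lower in 10 of 10 pairs. The mean was 148 ± 123 CPM (SD, n = 10) after vehicle and 87.5 ± 76.3 CPM (SD, n = 10) after DHA, and the difference was -1.00 ± 0.21 (log2, SE; limma, adjusted p = 0.00205). By experiment it was -0.24, -0.88, -0.53, -1.90 and -1.46, so experiments 4 and 5 had the largest falls. Those experiments hold the 3 shallowest libraries, in which 43, 17 and 38 reads of ACSL3 were counted in DHA+Veh 5, DHA+BTC 5 and DHA+BTC 4. Without these 3 libraries the difference was -0.74 and the call was lost (limma, adjusted p = 0.0637). It was kept without any single experiment (limma, adjusted p at most 0.0336), with edgeR (adjusted p = 0.00573) and with DESeq2 (adjusted p = 0.000561).

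FASN, the synthase itself, fell on average, being lower after DHA in experiments 1 to 4 and higher in experiment 5. Veh+Veh libraries held 353, 398, 365, 414 and 571 CPM in experiments 1 to 5, and Veh+BTC libraries held 503, 389.9, 322, 439.9 and 530.2 CPM. DHA+Veh libraries held 182, 269, 174, 187 and 772 CPM, and DHA+BTC libraries held 156, 269, 165, 200.1 and 752 CPM. In experiments 1 to 4 the highest DHA library, at 269 CPM, lay below the lowest vehicle library, at 322 CPM, so the groups did not overlap there. In experiment 5 both DHA libraries lay above both vehicle libraries. OLA+Veh libraries held 335, 316, 361, 428 and 344 CPM, and OLA+BTC libraries held 350.5, 311, 386, 414 and 819 CPM, where OLA+BTC 5 was the highest of all 30. The difference between DHA and vehicle was -0.71 ± 0.17 (log2, SE; limma, adjusted p = 0.00758) over 5 experiments and -1.00 without experiment 5 (limma, adjusted p = 2.88e-05). By experiment it was -1.31, -0.55, -1.01, -1.14 and 0.47. The call was lost without experiment 1, 3 or 4 (limma, adjusted p = 0.0664, 0.068 and 0.0885), with the libraries averaged per experiment (limma, adjusted p = 0.0593), with median-of-ratios scaling (limma, adjusted p = 0.0576), with edgeR (adjusted p = 0.0809) and with DESeq2 (adjusted p = 0.0591).

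Other genes of lipid metabolism did not all follow FASN in experiment 5. ANGPTL4, a secreted inhibitor of lipoprotein lipase and a known target of fatty acids, was at 7.70 and 15.4 CPM in the vehicle libraries of experiment 5 and at 515 and 620.0 CPM in its DHA libraries. SCD, the desaturase that makes oleic acid, was at 1211 and 315 CPM after vehicle and at 151 and 156 CPM after DHA in that experiment. SREBF2, the SREBP of cholesterol synthesis, which was not called over 5 experiments, was at 307 and 402 CPM after vehicle and at 123 and 53.8 CPM after DHA. IDH2, a mitochondrial isocitrate dehydrogenase that was not called either, had the pattern closest to FASN in these libraries. Its likeness to FASN therefore follows from that choice. IDH2 was lower after DHA in experiments 1 to 4 (-0.66, -0.52, -0.50 and -0.63 on the log2 scale) and higher in experiment 5 (0.33), as FASN was. The DHA libraries of experiment 5 were the 2 shallowest, with 1538581 and 1245182 reads, and held 1188 and 937 reads of FASN. The part of depth in the FASN level was not tested.

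**Figure D2:**
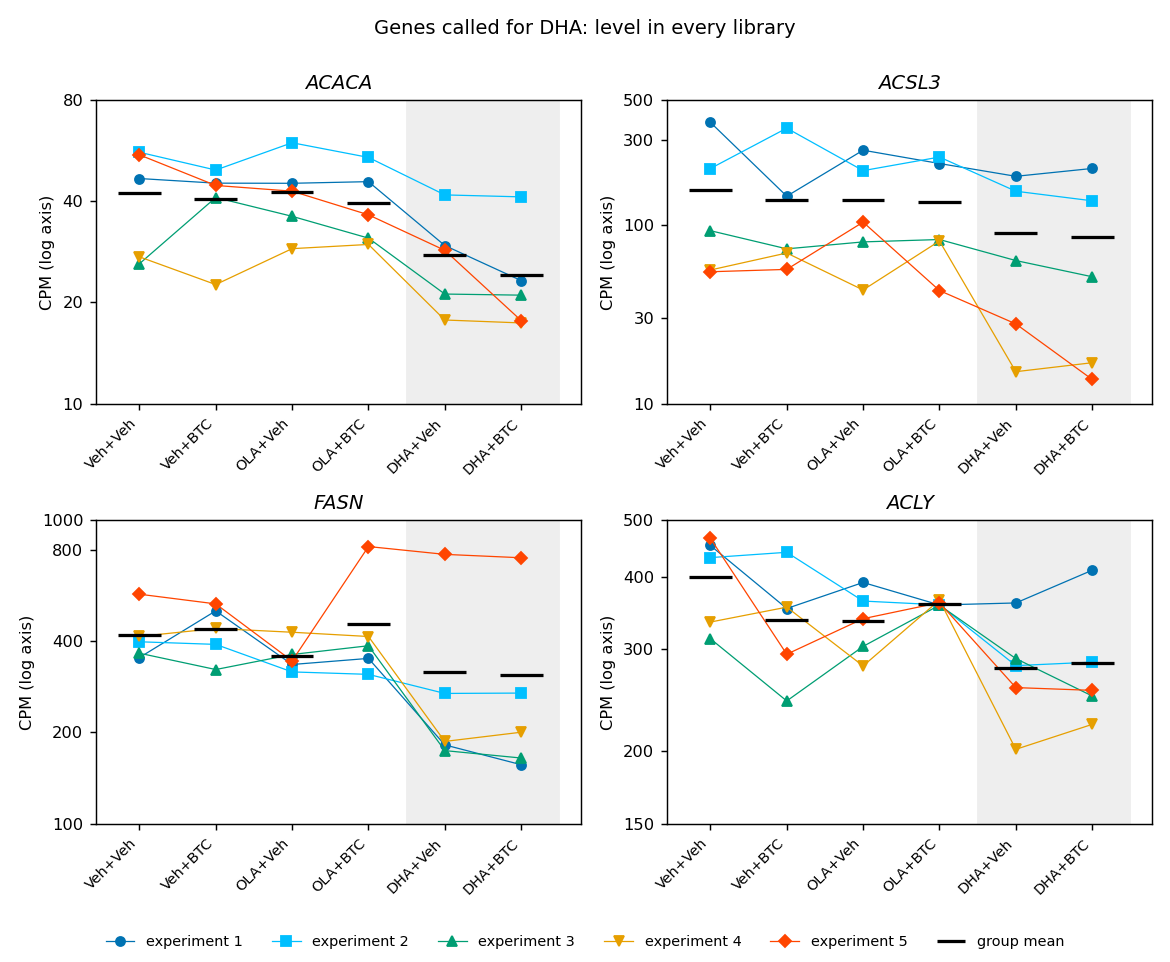
Level (CPM, log axis) of ACACA, ACSL3, FASN and ACLY in each of the 30 libraries by group, with a colour and symbol for each experiment, lines joining an experiment and black bars for group means. DHA groups are shaded. ACACA steps down in every experiment, ACSL3 of experiments 1 and 2 lies above that of experiments 3 to 5 in every group, and FASN of experiment 5 stays at 752 to 772 CPM after DHA while the other DHA libraries lie between 156 and 269 CPM.

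Of the genes that supply acetyl-CoA, ACLY fell slightly and ACSS2 was not called. ACLY was at 452, 431, 312, 334 and 465 CPM in Veh+Veh libraries and at 352, 440.4, 244, 354 and 294 CPM in Veh+BTC libraries of experiments 1 to 5. It was at 360.1, 281, 289, 201 and 257 CPM in DHA+Veh libraries and at 410.1, 285, 249, 222 and 255 CPM in DHA+BTC libraries. In experiments 2, 4 and 5 both DHA libraries lay below both vehicle libraries, and in experiments 1 and 3 they overlapped. The difference was -0.39 ± 0.11 (log2, SE; limma, adjusted p = 0.0179), with -0.05, -0.62, -0.04, -0.70 and -0.53 by experiment. The ACLY call was lost without experiment 2, 4 or 5 (limma, adjusted p = 0.0931, 0.144 and 0.0911), without the 3 shallowest libraries (limma, adjusted p = 0.152), with libraries averaged per experiment (limma, adjusted p = 0.111), with median-of-ratios scaling (limma, adjusted p = 0.122), and with edgeR (adjusted p = 0.151) and DESeq2 (adjusted p = 0.0684). The last 1000 bases of ACLY overlap AC125257.2 on the opposite strand in GENCODE v29, and whether counting used strand is not given in the sources used here. ACSS2 had means of 22.0 ± 7.77 CPM (SD, n = 10) after vehicle and 16.1 ± 5.61 CPM (SD, n = 10) after DHA. Its difference was -0.42 ± 0.19 (log2, SE; limma, adjusted p = 0.147). In experiment 3 ACSS2 was at 30.0 and 33.7 CPM after vehicle and at 13.9 and 11.1 CPM after DHA, while in experiments 4 and 5 the difference was -0.13 and 0.13.

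SREBF1 was low and did not pass the test, although its estimate was as large as that of FASN. Veh+Veh libraries held 19.0, 5.77, 8.56, 8.47 and 14.5 CPM in experiments 1 to 5, and Veh+BTC libraries held 2.85, 7.19, 8.27, 15.9 and 2.91 CPM. DHA+Veh libraries held 4.25, 1.74, 6.36, 9.26 and 2.60 CPM, and DHA+BTC libraries held 9.02, 3.24, 3.71, 13.4 and 0 CPM. These groups overlapped, and Veh+Veh 1 and DHA+BTC 5 were the extremes. DHA+BTC 5 had 0 reads of SREBF1, which allows a level of up to 2.41 CPM (3 reads) in this smallest library, by counting error only. The difference was -0.84 ± 0.35 (log2, SE; limma, adjusted p = 0.119), with a 95% interval of -1.54 to -0.13. By experiment, averaged over BTC, it was -0.27, -1.13, -0.68, -0.06 and -2.04, negative in 5 of 5. SREBF1 was lower after DHA in 8 of 10 matched pairs. The exceptions were experiment 1 with BTC (1.38) and experiment 4 without BTC (0.12). SREBP1 has forms with different first exons (SREBP1a and SREBP1c) that share the 3′ end, so these tags count them together. The last 1000 bases of SREBF1 overlap RAI1 on the opposite strand in GENCODE v29. SREBP1 is also set by proteolysis, which RNA counts do not measure.

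ACACB, ME1, ACSL1 and LPIN1 were not called for DHA. ACACB, the carboxylase at the mitochondrial outer membrane, had means of 11.5 ± 5.50 CPM (SD, n = 10) after vehicle and 7.92 ± 5.70 CPM (SD, n = 10) after DHA, with a difference of -0.62 ± 0.24 (log2, SE; limma, adjusted p = 0.0865). By experiment it was -0.45, 0.29, -0.53, -0.65 and -1.76, so experiment 2 went the other way and experiment 5, where DHA+Veh 5 had 3 reads, had the largest fall. Without experiment 2 ACACB was called (limma, adjusted p = 0.0369). LPIN1 had means of 47.6 ± 26.6 CPM (SD, n = 10) after vehicle and 36.1 ± 19.9 CPM (SD, n = 10) after DHA, and its difference of -0.39 ± 0.13 (log2, SE; limma, adjusted p = 0.0531) lay just outside the threshold. LPIN1 was lower after DHA in 9 of 10 matched pairs, and the call was made without experiment 5 (limma, adjusted p = 0.0367) and with a pseudocount of 4 CPM (limma, adjusted p = 0.0499). ME1 and ACSL1 had differences of -0.24 ± 0.27 and -0.34 ± 0.36 (log2, SE; limma, adjusted p = 0.65 and 0.619). Their 95% intervals of -0.80 to 0.32 and -1.07 to 0.40 allow a fall or a rise. ME1 was lower after DHA in 5 of 10 matched pairs and ACSL1 in 7 of 10.

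**Figure D3:**
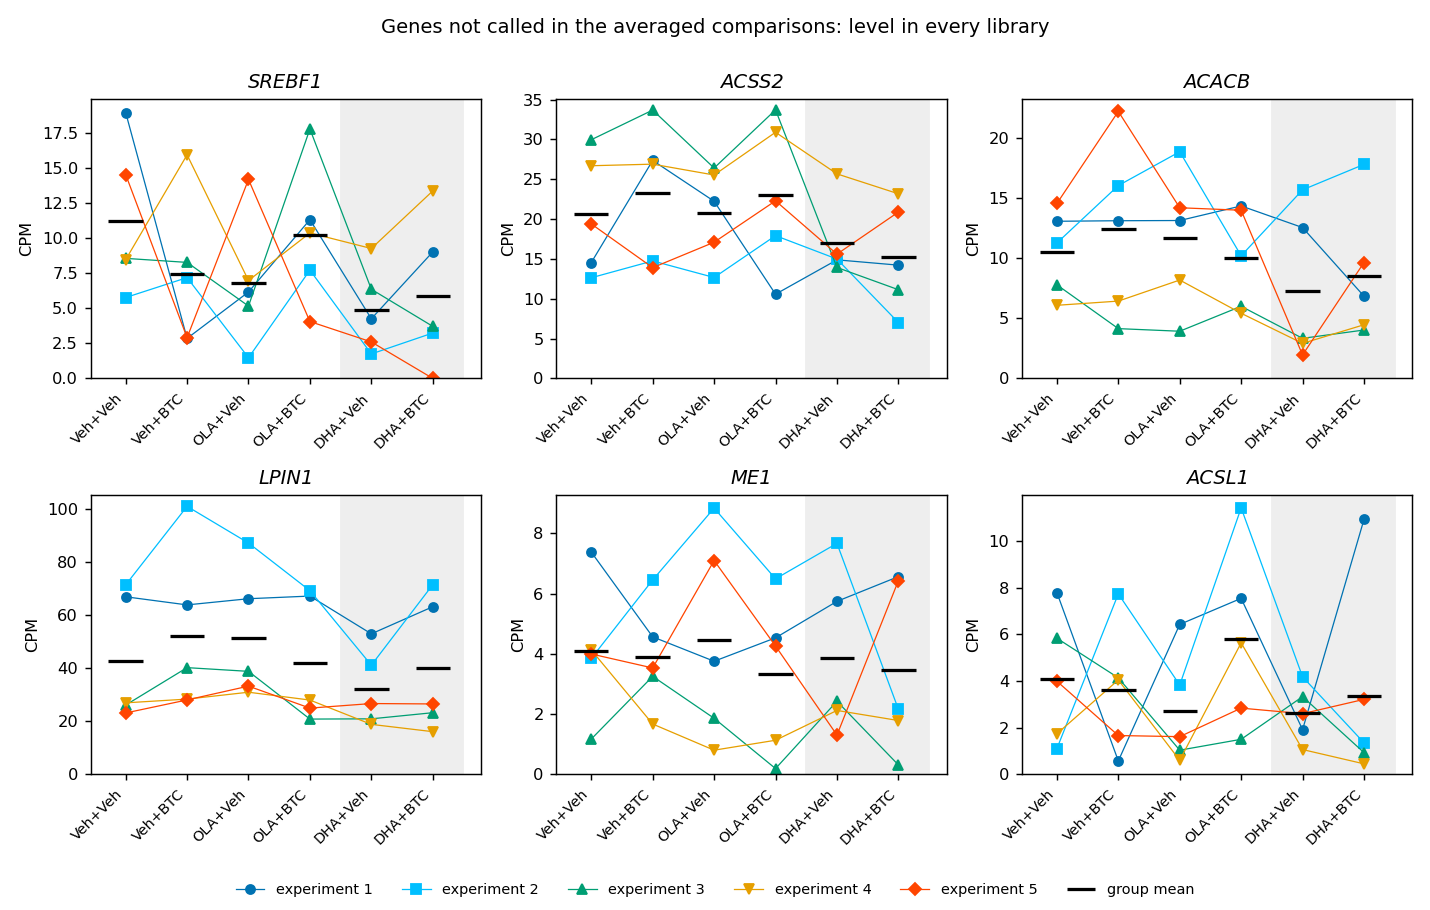
Level (CPM, linear axis from 0) of the 6 genes not called in the averaged comparisons, in each of the 30 libraries by group, with a colour and symbol for each experiment and black bars for group means. DHA groups are shaded. SREBF1 scatters between 0 and 19.0 CPM, and LPIN1 separates experiments 1 and 2 from the rest in every group.

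With and without BTC taken separately, fewer genes passed. With BTC, ACACA (-0.76 ± 0.18, log2, SE; limma, adjusted p = 0.0131) and ACSL3 (-1.06 ± 0.30; limma, adjusted p = 0.0412) were lower after DHA, 2 of 10 genes where 3.55% of all genes tested were called. edgeR called 0 of the 10 here and DESeq2 called 2, where they called 270 and 530 genes over the whole table. limma called 0 without experiment 3 and at most 1 when any experiment was left out. It called 0 to 2 when a library was left out. The count fell below 2 in 12 of these 15 settings. Without BTC, limma called 0 of 10, where 1.54% of all genes tested were called. Of the 10, 6 had an unadjusted p under 0.05 there. edgeR and DESeq2 also called 0 of 10, where they called 178 and 338 genes over the whole table. The estimates without BTC were -0.57 for ACACA, -0.95 for ACSL3, -0.66 for FASN and -0.53 for ACLY. The difference between the 2 settings was tested as an interaction, and it was -0.18 ± 0.25 for ACACA (log2, SE; limma, adjusted p = 0.984) and 0.28 ± 0.22 for ACLY (limma, adjusted p = 0.984). The interaction of DHA with BTC was called for 0 of 10 genes by limma, edgeR and DESeq2, and none had an unadjusted p under 0.05. Over the whole table each tool called 0 (0%), with 527 genes at an unadjusted p under 0.05 in limma.

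Set against OLA, a fatty acid with fewer double bonds at the same concentration, DHA lowered ACSL3, ACACA, FASN and ACLY. This comparison shares its DHA libraries with the one against vehicle. The differences were -0.99 ± 0.21 for ACSL3 (log2, SE; limma, adjusted p = 0.00245), -0.67 ± 0.13 for ACACA (limma, adjusted p = 0.000679), -0.59 ± 0.17 for FASN (limma, adjusted p = 0.0249) and -0.33 ± 0.11 for ACLY (limma, adjusted p = 0.0456). These 4 of 10 genes were called lower, against 8.96% of all genes tested called lower and 11.4% called in either direction, a split of 363 higher and 1356 lower that became 515 and 751 with median-of-ratios scaling, 484 and 481 with edgeR and 664 and 747 with DESeq2. The median over the 10 genes was -0.48, beside -0.17 over all genes tested. ACACA and ACSL3 were also called by edgeR and DESeq2, while FASN (edgeR, adjusted p = 0.153) and ACLY (edgeR, adjusted p = 0.303) were not. The FASN call was lost without OLA+Veh 3, OLA+Veh 4, DHA+Veh 4 or DHA+BTC 4 (limma, adjusted p up to 0.0572) and without experiment 1, 3 or 4 (limma, adjusted p = 0.0991, 0.169 and 0.211). Without experiment 5 the FASN difference was -0.87 (limma, adjusted p = 0.00019). The ACLY call was lost when any of 15 libraries was left out (limma, adjusted p up to 0.1) and without experiment 2, 3, 4 or 5 (limma, adjusted p up to 0.243). The ACSL3 call was lost without the 3 shallowest libraries (limma, adjusted p = 0.0714). The interval of ME1, -0.58 to 0.54, gave no direction. LPIN1 was just outside the threshold again (-0.38 ± 0.13, log2, SE; limma, adjusted p = 0.0532). Without BTC, LPIN1 (-0.65 ± 0.18, log2, SE; limma, adjusted p = 0.0455) and ACACA (-0.62 ± 0.18; limma, adjusted p = 0.0475) were called, 2 of 10 where 3.27% of all genes tested were. edgeR called 0 of 10 there and DESeq2 3, where they called 316 and 678 genes over the whole table. limma called 0 or 1 when any library was left out, and 0 without experiment 1, 2, 3 or 4. With BTC, ACACA was called (-0.72 ± 0.18, log2, SE; limma, adjusted p = 0.0306), 1 of 10 where 1.72% of all genes tested were. edgeR and DESeq2 called 0 of 10 there, where they called 165 and 311 genes over the whole table. limma called 0 without experiment 3 or 4, and 0 to 2 when a library was left out. In limma 6 of 10 genes had an unadjusted p under 0.05.

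None of the 10 genes differed between OLA and vehicle beyond the spread between libraries. limma called 0 of 10 and none had an unadjusted p under 0.05, with 0 called by edgeR and by DESeq2. Over the whole table limma called 0% of the genes tested, with 302 at an unadjusted p under 0.05, and edgeR and DESeq2 called 0. The estimates ran from -0.22 for ME1 to 0.03 for ACSL1. The 95% intervals were -0.25 to 0.26 for ACACA, -0.28 to 0.16 for ACLY, -0.47 to 0.24 for FASN and -0.45 to 0.42 for ACSL3. Each of these excludes a fall as large as the DHA estimate for that gene. For SREBF1 the interval of -0.83 to 0.58 reaches close to the DHA estimate of -0.84. OLA was also called for 0 of 10 genes without BTC and for 0 of 10 with BTC by limma, edgeR and DESeq2, with no unadjusted p under 0.05 in limma. Over the whole table each of these tools called 0 in both settings (0%), with 468 and 1044 genes at an unadjusted p under 0.05 in limma.

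**Figure D4:**
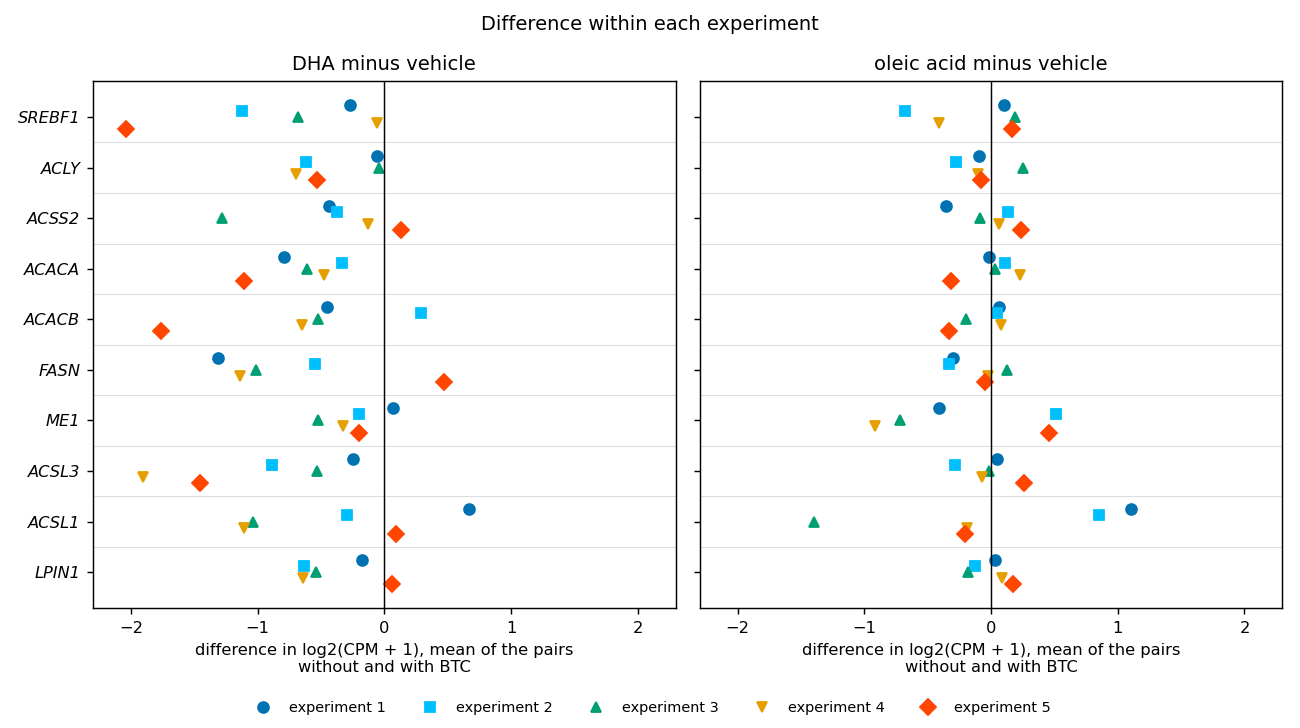
Difference in log2(CPM + 1) from vehicle within each of the 5 experiments (colours and symbols), averaged over the pairs without and with BTC, for DHA (left) and oleic acid (right), genes ordered by role. The DHA points of ACACA and ACSL3 all lie below 0, FASN lies at 0.47 in experiment 5 and between -1.31 and -0.55 in the others, and the points for oleic acid lie on both sides of 0 for every gene.

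None of the 10 genes differed with BTC beyond the spread between libraries. Averaged over pretreatments limma, edgeR and DESeq2 called 0 of 10, and none had an unadjusted p under 0.05. The same tools called 0 genes of the whole table (0%), with 609 at an unadjusted p under 0.05 in limma. Estimates ran from -0.20 for ME1 to 0.20 for ACSL1. The 95% intervals were -0.22 to 0.14 for ACLY, -0.32 to 0.09 for ACACA and -0.20 to 0.38 for FASN. After vehicle, after OLA and after DHA taken separately, BTC was called for 0 of 10 genes by each of these tools, with no unadjusted p under 0.05. Over the whole table limma called 0% in each of the 3 settings, with 1539, 299 and 629 genes at an unadjusted p under 0.05, edgeR called 0, and DESeq2 called 1, 1 and 0. The estimate for SREBF1 was -0.66 ± 0.49 after vehicle and 0.63 ± 0.49 after OLA (log2, SE). The interaction of OLA with BTC was called for 0 of 10 genes by limma, edgeR and DESeq2, which also called 0 genes of the whole table (0%), with 1279 at an unadjusted p under 0.05 in limma. LPIN1 alone had an unadjusted p under 0.05 there, with an estimate of -0.62 ± 0.26 (log2, SE; limma, adjusted p = 0.584).

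The genes differed in how much of their variance lay between experiments. On the log2(CPM + 1) scale this share was 82.6% for LPIN1 and 73.4% for ACSL3, and it was 30.3% for ACLY, 23.9% for SREBF1 and 17.7% for ACSL1. LPIN1 averaged 63.4 and 73.6 CPM in experiments 1 and 2 and 28.3, 24.8 and 27.1 CPM in experiments 3, 4 and 5. ACSL3 averaged 233 and 215 CPM in experiments 1 and 2 and 74.1, 47.1 and 49.9 CPM in the others. ACSS2 averaged 17.3 and 13.3 CPM in experiments 1 and 2 and 24.8, 26.5 and 18.2 CPM in experiments 3, 4 and 5. FASN stood at 631 CPM in experiment 5 and between 295 and 347 CPM in the others. The share between pretreatments was largest for ACACA (37.6%), ACLY (32.1%) and FASN (24.7%).

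Across the 30 libraries, with experiment means removed, ACLY and ACSL3 varied together (Pearson's r = 0.78), as did ACACA and ACSL3 (r = 0.66). FASN and SREBF1 did not (r = -0.07). SREBF1 had r = 0.62 with ACSL3, 0.58 with ACLY, 0.47 with ACACA and 0.32 with ACSL1. It had r = 0.13 with ACACB, 0.08 with LPIN1, 0.06 with ACSS2 and -0.005 with ME1. In experiments 1 to 4 FASN and SREBF1 were both lower after DHA than after vehicle, averaged over BTC. In experiment 5 FASN differed by 0.47 and SREBF1 by -2.04, with 4 and 0 reads of SREBF1 in DHA+Veh 5 and DHA+BTC 5. Of 10075 genes with a mean of at least 5 CPM, those with the pattern closest to ACLY were SCD (r = 0.85) and MCM3, a replication helicase subunit (r = 0.85). Closest to ACACA were NEXN, an actin-binding protein (r = 0.93), CXCL12, a chemokine (r = 0.92), and EBP, an enzyme of cholesterol synthesis (r = 0.87). Closest to ACSL3 were TRPC4, a cation channel (r = 0.92), and BIRC5 and LMNB1, genes of dividing cells (both r = 0.90). Closest to FASN was IDH2 (r = 0.87) and closest to ACSS2 was LSS, lanosterol synthase (r = 0.77). These values describe 30 libraries that share treatments, experiments and depth.

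Around the 10 genes, the pathway lists moved unevenly with DHA. The lists were chosen with earlier results of these data known, and each count stands beside the 8.38% called lower and 10.7% called over all genes tested, from the same limma fit, averaged over BTC. In the cholesterol list, the targets of the related factor SREBP2, 11 of 16 genes fell and none rose, with a median difference of -0.69. MVK, the mevalonate kinase, differed by -1.29 ± 0.20 (log2, SE; limma, adjusted p = 5.75e-05), and DHCR7, the last enzyme of cholesterol synthesis, by -1.16 ± 0.18 (limma, adjusted p = 9.18e-05). Of 14 desaturases and elongases 4 fell and none rose, among them SCD (-1.31 ± 0.20, log2, SE; limma, adjusted p = 4.96e-05) and FADS2 (-1.00 ± 0.26; limma, adjusted p = 0.0103). Without experiment 5 the count was 2, and FADS2 was not called (limma, adjusted p = 0.0644). Of 12 genes of acetyl-CoA and citrate supply 3 fell and 1 rose. SLC25A1, which exports citrate from mitochondria for ACLY, differed by -0.99 ± 0.18 (log2, SE; limma, adjusted p = 0.000581), ACSS1, the mitochondrial counterpart of ACSS2, by -0.92, IDH1 by -0.85 and ACO1, a cytosolic aconitase, by 0.53. These calls of SCD, SLC25A1, ACSS1, IDH1 and ACO1 were also made with libraries averaged per experiment, with edgeR, with DESeq2 and without experiment 5.

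Of 9 genes that process or hold SREBPs, INSIG1, which retains them in the endoplasmic reticulum and is itself a target, fell (-0.61 ± 0.13, log2, SE; limma, adjusted p = 0.00273). INSIG2, the second retention protein, rose (0.91 ± 0.29, log2, SE; limma, adjusted p = 0.0402), but not without experiment 5 (limma, adjusted p = 0.148). SREBF2 was not called (-0.57 ± 0.20, log2, SE; limma, adjusted p = 0.0586). Of 8 NADPH genes 2 fell, and NNT, a mitochondrial transhydrogenase, is not of the cytosolic supply the list is named for, while PGD, an enzyme of the pentose phosphate path, was not called with edgeR (adjusted p = 0.156). Of 9 lipogenic transcription factors and activators tested limma, edgeR and DESeq2 called none, 3 with an unadjusted p under 0.05. Of 14 genes around AMPK, the kinase that switches off the carboxylases, STK11 alone fell (limma, adjusted p = 0.0333), and not with edgeR, DESeq2 or without experiment 5. Of 15 other synthetases and carriers DBI fell, and of 15 glycerolipid genes DGAT1 fell, and neither was called without experiment 5 (limma, adjusted p = 0.0632 and 0.0725). Of 10 genes of mitochondrial fatty acid synthesis NDUFAB1 rose (limma, adjusted p = 0.0388), and not without experiment 5 (limma, adjusted p = 0.3). Of 7 LXR targets, the receptor family that induces SREBF1, MYLIP (-1.44 on the log2 scale) and LPCAT3 (-0.45) fell, but LPCAT3 was not called with edgeR (adjusted p = 0.208). Only 3 of these 7 differences were negative, and the list median was 0.06, beside -0.13 over all genes tested. Without experiment 5, 5 of 7 were negative and the median was -0.10, beside -0.11 over all genes tested.

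**Figure D5:**
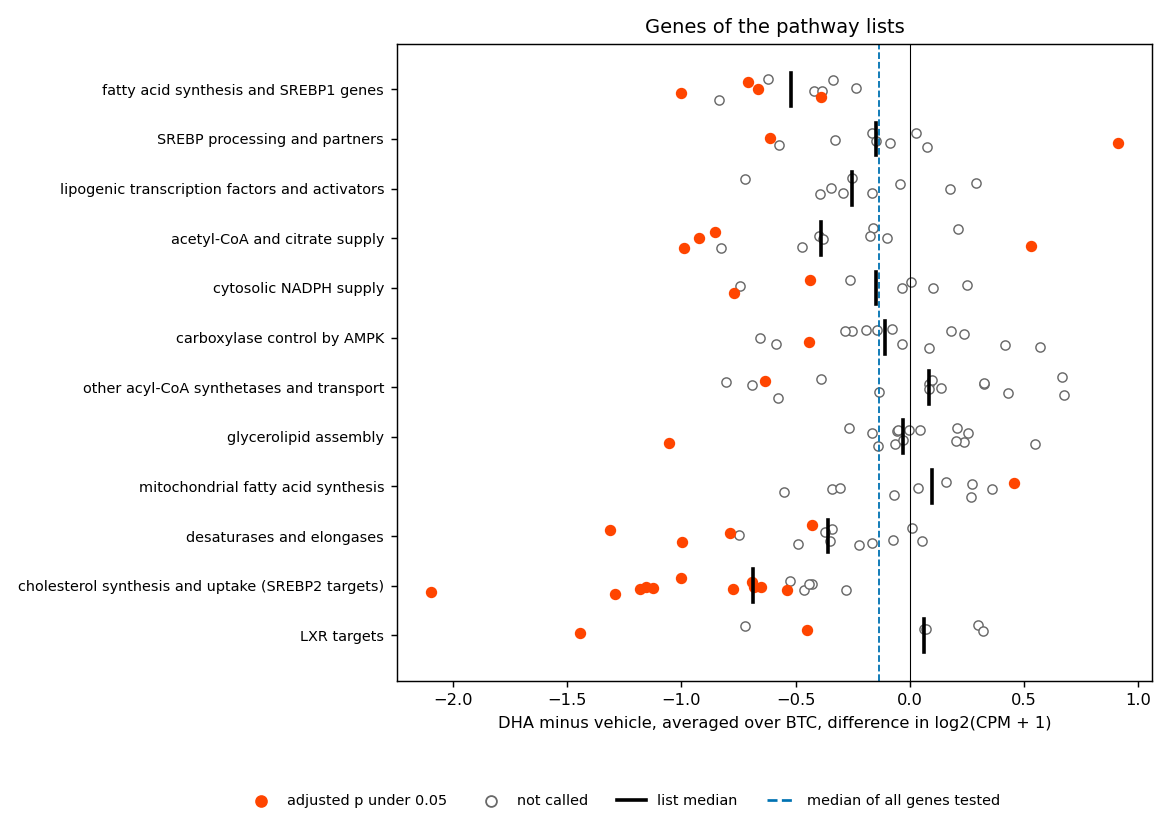
Difference in log2(CPM + 1) between DHA and vehicle, averaged over BTC, for each tested gene (points; filled where the adjusted p was under 0.05) of the 10 genes and of 11 pathway lists, with list medians (black bars) and the median of all genes tested, -0.13 (dashed line). The cholesterol list has a median of -0.69, the 10 genes of -0.52 and the desaturases and elongases of -0.36, and mitochondrial fatty acid synthesis of 0.10.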

How the data were processed

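RNA of 30 LX2 cultures was read as 3′ tags (QuantSeq kit, per the labels' protocols). The deposited table holds reads per 1000000 (CPM) for each library, as every column sum shows. The submitters' processing notes name STAR 2.5.3a and HTSeq 0.6.0. The genome build, annotation release and strand setting are not given in the sources used here. All values were whole multiples of 1 read within 0.01 read (100%), which gave the reads and totals. Symbols matched 61444 of 61597 Ensembl IDs (99.8%). Groups and experiments came from the labels.

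Genes with at least 1 CPM in at least 5 libraries (15137) were tested as log2(CPM + 1) with limma 3.58.1 (R 4.3.3, trend), with terms for 6 groups and for experiment, two-sided, adjusted by Benjamini-Hochberg, with a threshold of 0.05 and no fold minimum. Fold differences are on this scale and understate low genes. The experiment term rests on the labels, where experiment is a cohort: deviations of 75 of 75 same-experiment library pairs correlated over 0.1 (lowest 0.119, median 0.507), and 27 of 30 libraries correlated best with their own experiment. No libraries of the same group were duplicates (smallest chi-square per degree of freedom within a group 14.2). Libraries of different groups were not compared in this way. Other settings were the fit without experiment, libraries averaged per experiment, no filter, pseudocounts of 0.5 and 4 CPM, median-of-ratios scaling, edgeR 4.0.16 and DESeq2 1.42.0 on the recovered reads, and leaving out libraries or experiments. Running the gene lists under such settings was chosen after the data were seen. Of other genes, the text names from each list up to 4 with the smallest p for DHA against vehicle, and for each of the 10 genes up to 3 nearest patterns, and SCD, SREBF2, INSIG1 and ANGPTL4 could be named anywhere. Some genes that this rule covers are not reported here. The 10 genes and all lists were chosen with earlier results of these data known. Intervals from reads cover counting error only.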

Additional observations from a re-analysis of the deposited data

Results flagged for a closer look

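In 7 of 60 groups of 5 libraries (10 genes in 6 groups) 1 library stood apart from the other 4, by a gap over 0.71 of the group's range; chance gives about 1 in 20 groups. FASN of experiment 5 accounts for 4 of them. It was at 570.7 CPM in Veh+Veh 5, with the others of its group at 352.7 to 414.2 CPM, and at 819.4 CPM in OLA+BTC 5, with the others at 310.5 to 413.9 CPM. FASN was at 772.1 CPM in DHA+Veh 5, with the others at 174.1 to 268.7 CPM, and at 752.5 CPM in DHA+BTC 5, with the others at 156.4 to 269.4 CPM. ACACA was at 41.26 CPM in DHA+BTC 2, with the others at 17.4 to 23.2 CPM, and experiment 2 held the highest ACACA level of every group. ACSS2 was at 25.68 CPM in DHA+Veh 4, with the others at 13.9 to 15.6 CPM. ACSL1 was at 10.94 CPM (40 reads) in DHA+BTC 1, with the others at 0.446 to 3.21 CPM.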

How the results depend on the processing

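The differences of the 10 genes between DHA and vehicle stayed negative in every setting run (340 in all), with the call lost in 20 and gained in 9. Without the replicate block limma called 0 genes against vehicle, 0 against OLA (104 and 68 in the whole table), and 0 in each comparison within a BTC setting. Averaged per experiment the counts were 2 and 2 (784 and 771 in the whole table). They were 2 and 2 with edgeR with the block (951 and 965) and with DESeq2 (1370 and 1411). With no filter on low values the count against OLA was 2 (1203). The counts were also 2 and 2 with median-of-ratios scaling (1284 and 1266) and without the 3 shallowest libraries (575 and 537). DHA against vehicle without BTC gave 1 without those 3 libraries. With BTC it gave 0 with edgeR (270 in the whole table). It gave 1 there without those 3 libraries, without a filter and with median-of-ratios scaling. DHA against OLA without BTC gave 0 with edgeR (316 in the whole table) and with median-of-ratios scaling, and 1 with no filter. With BTC it gave 0 with edgeR (165), DESeq2 (311) and median-of-ratios scaling. Leaving out a library or an experiment, limma called 2 to 5 genes (763 to 2071 in the whole table) against vehicle, and 2 to 5 (601 to 2102) against OLA. Within a BTC setting the ranges were 0 to 1 and 0 to 2 (vehicle, without and with BTC) and 0 to 1 and 0 to 2 (OLA). Whole-table counts beside these ranges and beside the other limma settings within a BTC setting are not reported here.

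Signs turned for genes that were not called. For OLA against vehicle, ACACA was -0.00553 with edgeR and -0.006288 with DESeq2, ACSS2 0.001137, 0.0121 and 0.01073 with median-of-ratios scaling, edgeR and DESeq2, and ACSL1 -0.0007956, -0.1641 and -0.1779. For DHA against OLA, ME1 was 0.08128, 0.1425 and 0.151 under those 3. For BTC, SREBF1 was 0.003905 with a pseudocount of 4 CPM, 0.08577 with edgeR, 0.0946 with DESeq2 and 0.04557 without the 3 shallowest libraries, where ACACB was -0.01817, ACSS2 -0.09045 and ACSL3 0.002409. Leaving out a library or an experiment, ranges that crossed 0 for OLA were -0.04853 to 0.08847 (ACACA), -0.149 to 0.04089 (ACACB), -0.1893 to 0.01129 (FASN), -0.08678 to 0.1151 (ACSS2), -0.3818 to 0.0194 (SREBF1), -0.2434 to 0.3907 (ACSL1), -0.1539 to 0.06617 (ACSL3) and -0.04813 to 0.0454 (LPIN1). For BTC they were -0.07213 to 0.1841 (ACACB), -0.05072 to 0.08659 (ACSS2), -0.2774 to 0.4018 (SREBF1), -0.2855 to 0.01097 (ACSL3) and -0.0282 to 0.08099 (LPIN1), and for ME1 in DHA against OLA -0.1736 to 0.1535. The cause was not tested. Depth limits SREBF1, ME1 and ACSL1, with medians of 25, 14 and 10 reads.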
